A study of Mus musculus with 9 samples.

Results

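The mRNAs of Wdr5 and 8 partner subunits of the MLL/SET1 histone methyltransferase complexes were described in RIPiT-seq libraries of mouse embryonic stem cells. RIPiT-seq sequences the RNA that is recovered with a tagged protein after 2 immunopurifications in a row. The genes were the rows of the deposited table named Wdr5, Ash2l, Rbbp5, Dpy30, Setd1a, Setd1b, Cxxc1, Wdr82 and Men1, 9 of 24132 gene symbols. The study asked which cellular RNAs associate with WDR5 and whether this needs its RNA-binding surface. All 9 genes were among the 9787 tested, which had an RPKM (a read number divided by transcript length and by the library's mapped reads) of at least 1 in at least 2 libraries.

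All libraries came from V6.5 embryonic stem cells, a 129/B6 F1 hybrid line that was grown feeder-free with LIF and doxycycline. The cells carried a puromycin-selected lentivirus with no tagged WDR5 (empty vector), with FLAG-HA-tagged human WDR5 of wild-type sequence (WT), or with FLAG-HA-tagged human WDR5 F266A, in which a phenylalanine of the protein is replaced by alanine. The F266A construct is also shorter at its N terminus. Clones were chosen for a tagged protein level close to that of the endogenous protein, and the cells of all 3 lines kept endogenous Wdr5. Each line gave 1 input library of RNA before purification and 2 IP libraries, numbered 1 and 2, after formaldehyde fixation and tandem FLAG and HA purification, so there were 9 libraries of which 6 were IPs and 3 were inputs. The labels do not say whether IPs 1 and 2 came from separate cultures, so the p-values here measure the spread between these libraries. The labels name 1 line per construct, so the effect of a construct and a difference between lines cannot be told apart.

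MLL/SET1 complexes place methyl groups on lysine 4 of histone H3, a mark of active promoters. A core of WDR5, RBBP5, ASH2L and DPY30 is shared by all the family's methyltransferases, which have little activity without it. SETD1A and SETD1B are the catalytic subunits of the SET1 complexes, and within the family CXXC1 and WDR82 are found only with them, while menin, the product of Men1, belongs to the complexes built around KMT2A and KMT2B. In embryonic stem cells WDR5 is known for its part in self-renewal.

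WDR5 holds the catalytic subunits by a short stretch of theirs, the WDR5-interaction (Win) motif, whose arginine enters the central channel of the WDR5 propeller. The sequences below show where F266A lies in the endogenous gene and how far the Win motif is shared by both SET1 enzymes among the 9 genes. They are read 5′ to 3′ from GENCODE M1 transcripts on the plus strand of mm9, and each lies in coding sequence within 1 exon. The capitals mark the phenylalanine codon of Wdr5 that F266A names, at chr2:27388911-27388913 within chr2:27388899-27388925 in exon 12, the Win codons 1501 to 1506 of Setd1a within chr7:134940647-134940676 in exon 15, and the Win codons 1764 to 1769 of Setd1b within chr5:123611816-123611845 in exon 13.
Wdr5 codon of F266A: atatttgccaacTTCtccgtgacaggc
Setd1a Win motif: cagacaGGCTCTGCACGCAGCGAAggttat
Setd1b Win motif: gtgacaGGCTGCGCCCGAAGCGAGggcttc
Between the 2 Win motifs 13 of 18 bases were equal and 5 of 6 codons coded for the same residue. The coding sequences hold 334 residues for Wdr5, 1716 for Setd1a and 1985 for Setd1b. The constructs carry human cDNA, so the codon changed in F266A is not the mouse codon shown, and the deposited table does not separate reads of endogenous Wdr5 from any reads of a construct that mapped to the mouse gene.

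Depth, estimated from the value of 1 read, ranged from 13400000 to 50200000 mapped reads (the IPs from 13400000 to 27200000). The share of reads on genes was estimated as RPKM times exon length, summed over symbols with 1 gene in GENCODE M1. It was 20.1% to 22.6% in the inputs and 27.2% to 29.5% in the IPs. It rests on the same RPKM as the comparisons below, and the lengths that the authors used are not given in the sources used here. All 10 embryonic stem cell markers listed were at an RPKM of 1 or more in every library. The F266A IP 1 stood apart from the other libraries of its label. The summed RPKM of 3 Y-linked genes (Ddx3y, Uty and Eif2s3y) was 0.0383 there against 4.43 in the F266A input and 7.21 in F266A IP 2, while it lay between 7.41 and 9.48 in the empty vector line and between 0.182 and 0.324 in WT. The summed RPKM of 10 primitive endoderm markers was 21.9 in the F266A input and 30.1 in F266A IP 2, 8.37 in F266A IP 1, and between 7.85 and 9.41 in the 6 libraries of the other lines, where most of it came from Lama1 and Lamb1. Of the more specific markers, F266A IP 1 held Gata4 at 0.695 and Dab2 at 0.916. Both lay below both other F266A libraries (at least 1.91 and 3.02) and above the 6 libraries of the other lines (at most 0.171 and 0.261). Sox7, Col4a1, Gata6 and Pdgfra lay between in the same way. In F266A IP 1, Sox17 (0.016), Foxa2 (0) and Lama1 (2.67) were within the range of the other lines, and Lamb1 (2.69) was below all other libraries. The summed markers of fibroblasts (0.451 to 1.59, with Lum and Dcn at 0 throughout), neuroectoderm (2.44 to 5.61) and mesoderm (0.437 to 0.888) were low in every library. F266A IP 1 thus held less Y-linked and endoderm marker RNA than both other libraries of its label, and whether it came from another clone or was mislabelled was not tested. The main results for F266A are therefore also given without F266A IP 1, and the part of the endoderm markers in them was not tested. In bulk libraries a different number of cells of a type and a different amount of RNA per cell cannot be told apart.

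Per length, the mRNAs of the 9 subunits fell into 3 ranges of mean level. Dpy30 and Ash2l were the most abundant, with a mean RPKM over the 9 libraries of 17.5 and 14.6. Setd1a, Cxxc1, Wdr5, Wdr82 and Rbbp5 followed at 10.4, 9.45, 9.44, 7.90 and 7.65, and Men1 and Setd1b were lowest at 3.07 and 1.82. Within this order Cxxc1 (5.62 to 12.1) and Wdr5 (5.85 to 12.9) changed places between libraries. Wdr5 was above Cxxc1 in every input and both WT IPs, and below it in the other IPs. Wdr82 (5.16 to 9.26) and Rbbp5 (5.64 to 9.54) changed places between libraries too. Setd1b was the lowest and Men1 the second lowest in all 9 libraries, and Dpy30 was the highest in 8, with Ash2l above it in the F266A input. The estimated number of reads per gene and library ran from 143 to 2854, which gives a counting error of 1.87% to 8.37%. These estimates take the length of the longest GENCODE M1 mRNA with both untranslated regions, which may differ from the length that the authors used.

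Of the shared core, Wdr5 (chr2:27370677-27392055, plus strand, mm9) encodes the propeller protein that was tagged. The empty vector input stood at an RPKM of 8.05 and its IPs at 9.34 and 10.5. The WT input stood at 9.54 and its IPs at 12.9 and 11.8, or 12.4 ± 0.81 (SD, n = 2). The F266A input stood at 5.85 and its IPs at 8.79 and 8.18. The WT IPs were the highest and the F266A IPs the lowest, with the empty vector IPs between them and no overlap, and the inputs stood in the same order. Ash2l (chr8:26926663-26958166, minus strand) encodes the subunit that pairs with RBBP5 to activate the methyltransferase. The empty vector line had an input RPKM of 10.6 and IPs at 13.8 and 12.1, and WT an input of 11.3 and IPs at 13.2 and 14.0. The F266A input reached 17.4 and its IPs 16.4 and 22.4. Each F266A library was thus above each of the 6 other libraries, and F266A IP 1 was the only one of the 6 in which Ash2l lay below its own input.

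Rbbp5 (chr1:134373944-134402242, plus strand) encodes the scaffold that joins WDR5 to ASH2L. Its RPKM was 6.68, 7.18 and 5.64 in the empty vector, WT and F266A inputs. The IPs gave 7.18 and 8.14 in the empty vector line, 8.65 and 9.54 in WT, and 7.84 and 7.98 in F266A. Both WT IPs were above the other 4 IPs, while those of F266A lay within the range of the empty vector. Dpy30 (chr17:74698814-74723284, minus strand), which encodes a small dimer that binds ASH2L, had an input RPKM of 11.4 in the empty vector line, 15.1 in WT and 13.0 in F266A. Its IPs were at 19.5 in both empty vector libraries, at 21.1 and 15.3 in WT, and at 19.6 and 22.8 in F266A. The WT IPs spanned most of this range, and WT IP 2 differed little from the WT input. The Dpy30 mRNA is the shortest of the 9, with 799 bases in GENCODE M1 against 2618 to 7663 for the others.

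Of the catalytic subunits, Setd1a (chr7:134920184-134943636, plus strand) had an RPKM of 8.76, 8.72 and 8.42 in the empty vector, WT and F266A inputs. The IPs were at 10.6 and 11.0 in the empty vector line, 11.1 and 11.8 in WT, and 10.8 and 12.6 in F266A. The 3 inputs were nearly equal, and Setd1a had the smallest ratio of highest to lowest library of the 9 genes, 1.49. In GENCODE M1, 3523 exon bases of Setd1a also belong to Hsd3b7, and how the authors' counting treated shared bases is not given in the sources used here. Setd1b (chr5:123592202-123617444, plus strand) was at 1.90, 1.42 and 1.13 in the inputs in the same order. Its IPs were at 2.07 and 2.19 in the empty vector line, 1.76 and 2.49 in WT, and 1.32 and 2.14 in F266A, so the IPs of the 3 lines overlapped. Setd1a exceeded Setd1b in every library, by 4.45-fold in WT IP 1 to 8.23-fold in F266A IP 2.

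Cxxc1 (chr18:74375785-74381145, plus strand) encodes the zinc finger protein that brings SET1 complexes to unmethylated CpG islands. Its RPKM was 7.25, 7.20 and 5.62 in the empty vector, WT and F266A inputs. The IPs were at 10.6 and 11.9 in the empty vector line, 10.6 and 12.1 in WT, and 8.57 and 11.2 in F266A. All 6 IPs exceeded all 3 inputs, with overlap between the lines. Wdr82 (chr9:106073260-106094747, plus strand) encodes the subunit that contacts initiating RNA polymerase II. Its RPKM was 8.21, 7.75 and 5.16 in the inputs in that order, and 9.02 and 9.26, 8.37 and 9.07, and 7.82 and 6.5 in the IPs. F266A was lowest in the inputs and in the IPs. Men1 (chr19:6334979-6340891, plus strand), a tumour suppressor gene, was at 2.56, 2.33 and 2.38 in the inputs. Its IPs were at 3.24 and 3.58 in the empty vector line, 3.14 and 3.32 in WT, and 4.09 and 3.0 in F266A, with overlap between the lines.

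**Figure D1:**
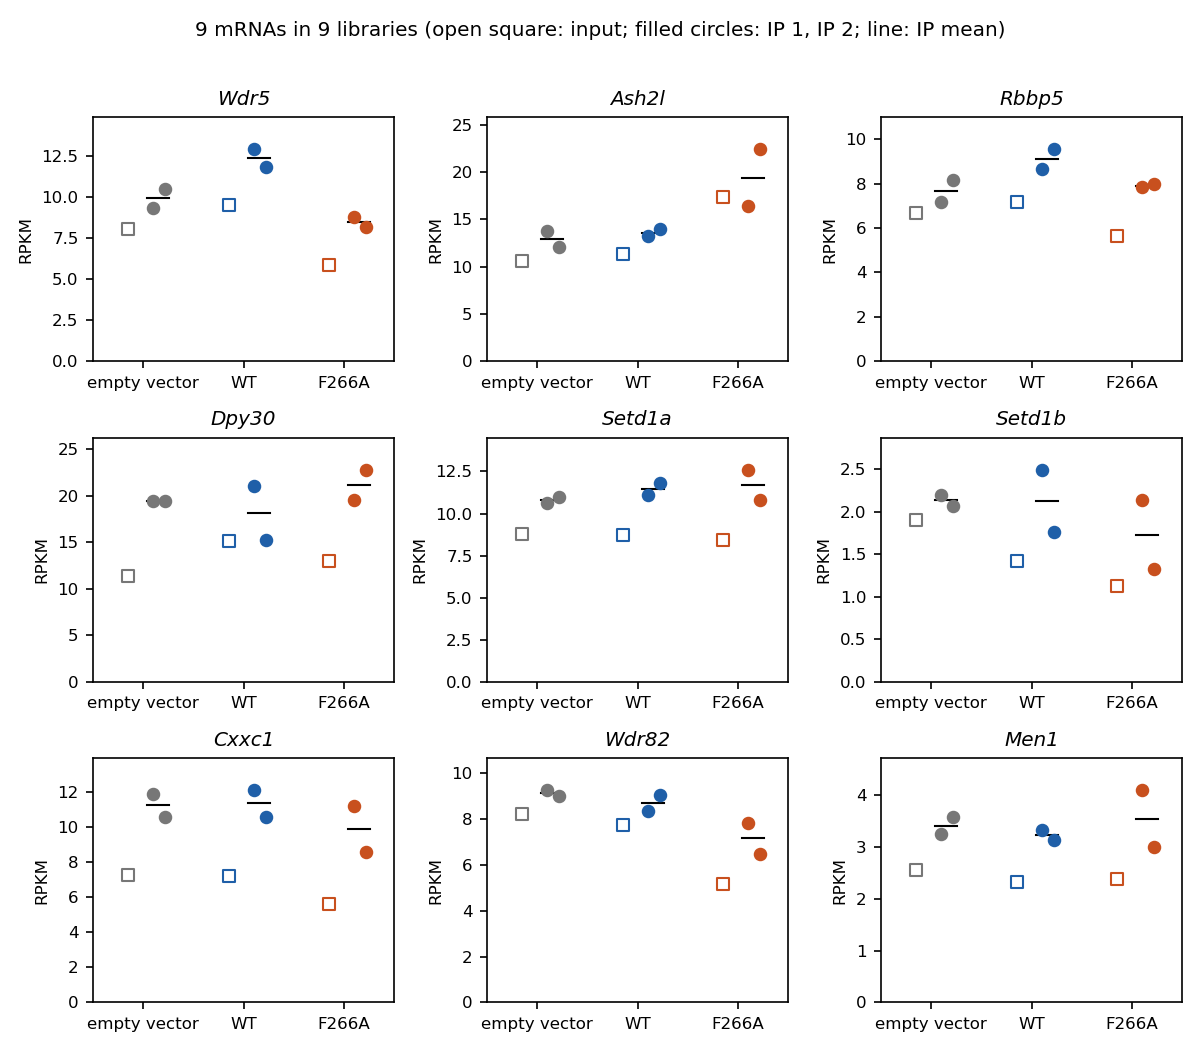
RPKM of each of the 9 mRNAs in the 9 libraries by line, with open squares for inputs, filled circles for IP 1 and IP 2 and a short line for the mean of both IPs; each vertical axis starts at 0. Ash2l was highest in the 3 F266A libraries (16.4 to 22.4) and Wdr82 lowest in the F266A libraries within each fraction.

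No window of 50 bases in the mRNA of any of the 9 genes was found in another protein-coding mRNA of GENCODE M1. This count does not reflect the 3523 exon bases that Setd1a shares with Hsd3b7, so reads there could belong to either gene. Wdr5b, a WDR5-like gene, was at an RPKM of 0.115 to 0.354, and Wdr5 exceeded it by 23.2-fold to 71.2-fold. The kit used for cDNA does not mark the strand. In GENCODE M1 the gene Gm17627 overlaps Setd1b and Mirlet7g overlaps Wdr82, each with 0 exon bases in common.

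The IPs were compared with the inputs to ask which mRNAs were recovered more than their level in the starting RNA. Averaged over the 3 lines, 6 of the 9 mRNAs were higher in the IPs and 0 were lower (limma on log2(RPKM + 1), Benjamini-Hochberg adjusted p under 0.05). Of all 9787 genes tested, 56.4% were called higher, and 0.470% lower, so the 6 of 9 stood near the background. The median difference was 0.35 on the log2 scale over the 9 mRNAs and 0.30 over all genes. A positive difference up to this size was therefore shared by genes in general here. The IPs also had the larger estimated share of reads on genes, and its part in the difference was not tested. Once each library was centred on its median gene, 0 of the 9 were called, against 1.56% of all genes in either direction.

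Cxxc1 had the largest difference, 0.62 ± 0.11 (SE, adjusted p = 0.00416 in limma), and Dpy30 followed with 0.54 ± 0.12 (adjusted p = 0.00765). Relative to the median gene, Cxxc1 stayed 0.31 higher and Dpy30 0.23 higher, without passing the test (adjusted p = 0.151 and 0.308). Wdr5 and Men1 each differed by 0.36 and Setd1a by 0.35 (adjusted p = 0.0103, 0.0165 and 0.0111), and against the median gene these became 0.049, 0.047 and 0.044. Rbbp5 differed by 0.30 (adjusted p = 0.0182), and its direction turned to -0.011 against the median gene. This call was lost without empty vector IP 2 (adjusted p = 0.0657). Setd1b (0.27, adjusted p = 0.0905), Wdr82 (0.23, adjusted p = 0.0531) and Ash2l (0.22, adjusted p = 0.125) did not pass the test, and their directions turned as well, to -0.040, -0.080 and -0.092. Without F266A IP 1 the difference of Ash2l was 0.29 and passed (adjusted p = 0.0264). Without F266A IP 2, Setd1b (0.34, adjusted p = 0.0234) and Wdr82 (0.27, adjusted p = 0.0227) passed.

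**Figure D2:**
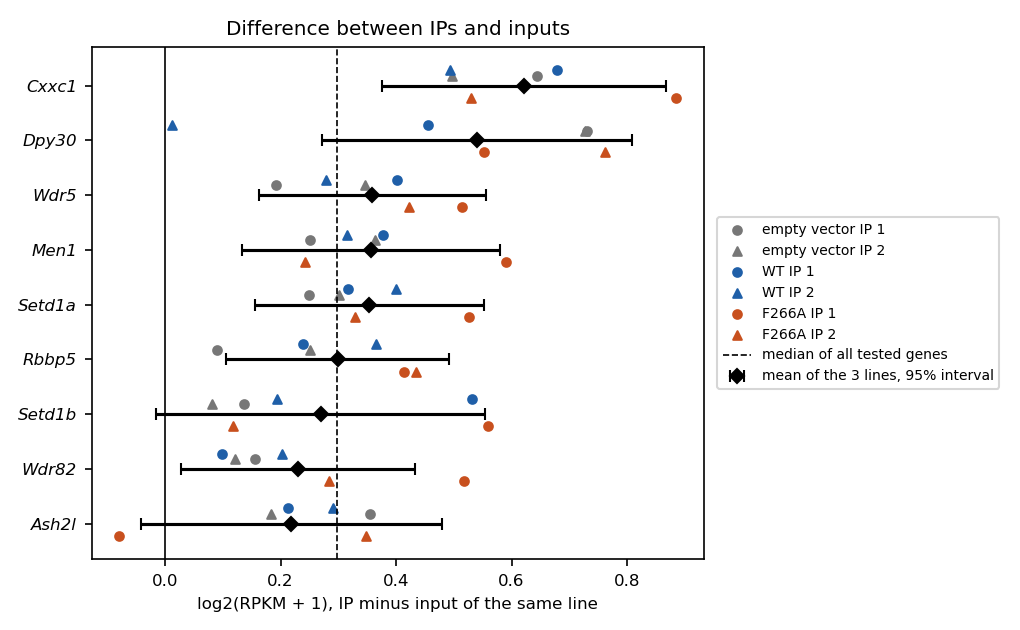
Difference in log2(RPKM + 1) between the IPs and the input of the same line for each mRNA, with small markers for the 6 IPs, diamonds for the mean of the 3 lines with its 95% interval from limma, a solid line at 0 and a dashed line at the median of all tested genes (0.30). The intervals of Wdr5, Men1, Setd1a, Rbbp5, Setd1b, Wdr82 and Ash2l include the dashed line, and that of Dpy30 (lower end 0.27) does too, while that of Cxxc1 starts at 0.38.

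In the single libraries, 8 of the 9 mRNAs were above their own input in all 6 IPs and Ash2l was in 5, where 66.3% of all genes were above it in all 6. Dpy30, Setd1a, Cxxc1 and Men1 were higher in all 6 IPs than in any of the 3 inputs, a pattern of 42.2% of all genes. Summed over the 9 mRNAs, the RPKM was 64.7 to 70.5 in the inputs and 86.6 to 93.3 in the IPs. Within single lines, where 2 IPs face 1 input that is assumed to vary like the IPs, 1 of the 9 was called in F266A against 19.3% of all genes. At an unadjusted p under 0.05 there were 7 of the 9, against 46.3% of all genes. The 1 called was Cxxc1 (0.71, adjusted p = 0.0433 in limma), a call lost without F266A IP 1 (0.53, adjusted p = 0.0890), without empty vector IP 1 (adjusted p = 0.0918) and without empty vector IP 2 (adjusted p = 0.0922). In each of these 3 settings 0% of all genes were called too. In the empty vector line 0 of the 9 were called, against 0.623% of all genes, and 2 of the 9 had an unadjusted p under 0.05, against 29.9% of all genes. In WT 0 were called, against 0.174% of all genes, and 2 had an unadjusted p under 0.05, against 29.0%.

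The comparison at the centre of the study sets the enrichment of WT over its input against that of both controls. Enrichment was taken here as IP minus input on the log2(RPKM + 1) scale, and the paper does not state an added 1. None of the 9 mRNAs was recovered more with WT than with F266A or the empty vector beyond the error of the test. In each of the 3 enrichment comparisons between lines, limma called 0 of the 9 and 0 of all genes (0%), with 0 of the 9 at an unadjusted p under 0.05, against 173 to 259 of all genes. The WT IPs gave Wdr5 an enrichment of 0.40 and 0.28, those of F266A 0.52 and 0.42, and those of the empty vector 0.19 and 0.35. WT was thus between the controls for Wdr5, and the difference was -0.13 against F266A (95% interval -0.61 to 0.35) and 0.071 against the empty vector (-0.41 to 0.55). The former was -0.083 (-0.59 to 0.43) without F266A IP 1. The latter turned to -0.0059 without empty vector IP 1.

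For Dpy30, the enrichment was 0.46 and 0.012 in WT, 0.55 and 0.76 in F266A, and 0.73 in both empty vector IPs. It was the lowest of the 9 in WT relative to each control, by -0.42 against F266A (95% interval -1.08 to 0.24) and -0.50 against the empty vector (-1.16 to 0.16), and the WT IPs differed from each other by 0.44. The difference from F266A was -0.53 (-1.23 to 0.17) without F266A IP 1. Over the 9 mRNAs the median difference in enrichment of WT against F266A was -0.12, and -0.092 over all genes. It was 0.039 for WT against the empty vector and 0.15 for F266A against the empty vector, where all genes had 0.0060 and 0.10. Without F266A IP 1 the medians of the 9 were -0.083 for WT against F266A and 0.052 for F266A against the empty vector, and those of all genes -0.080 and 0.086.

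Under the rule of the study a gene is enriched when the lower of its WT scores is above 0 and above all 4 scores of the controls, a comparison that carries no error. With scores from log2(RPKM + 1), this held for 4.79% of all rows and for 0 of the 9 mRNAs. The lower WT score was above 0 for all 9, from 0.012 for Dpy30 to 0.49 for Cxxc1. The highest control score exceeded it in each case, by a margin from -0.14 for Ash2l to -0.75 for Dpy30, and for 8 of the 9 that control was an F266A IP. Over all tested genes the median score was 0.39 and 0.35 in F266A and 0.26 to 0.27 in the other 4 IPs. The exception was Ash2l, whose highest control score was that of empty vector IP 1. With the mean of the 3 inputs in place of each line's own, Wdr5 and Rbbp5 met the rule, against 4.37% of all rows. Without F266A IP 1, Setd1b met it, against 8.19%.

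The lines were then compared directly. Between the IPs, 2 against 2, limma called 0 of the 9 in each comparison, where 1.16% of all genes were called for WT against F266A, 0% for WT against the empty vector and 4.55% for F266A against the empty vector. These shares changed with the libraries left out and with the filter. An IP of a line that is not compared enters a comparison only through the spread, which all lines share. With no filter 0, 2 and 2 of 20431 genes were called in these comparisons. For WT against F266A 0 genes were called without either empty vector IP and without either WT IP, and for F266A against the empty vector 0 without empty vector IP 1 and 4 without empty vector IP 2. There were 196 and 480 without F266A IP 1 and 70 and 275 without F266A IP 2, where 114 and 445 were called with all libraries. At an unadjusted p under 0.05 there were 2, 1 and 2 of the 9, against 15.5%, 5.69% and 20.4% of all genes, near the background. These were Wdr5 and Ash2l for WT against F266A, Wdr5 for WT against the empty vector, and Ash2l and Wdr82 for F266A against the empty vector. Wdr5 was 0.49 ± 0.12 (SE) higher in the WT than in the F266A IPs (adjusted p = 0.117, 95% interval 0.21 to 0.77) and 0.29 higher than in the empty vector IPs (adjusted p = 0.861). The former was 0.54 without F266A IP 1 (adjusted p = 0.109). Ash2l was 0.54 ± 0.16 higher in the F266A than in the empty vector IPs (adjusted p = 0.106). Without F266A IP 1 this was 0.75 and passed (adjusted p = 0.0344), where 4.90% of all genes did. Wdr82 was at -0.32 in F266A against the empty vector (adjusted p = 0.201), and at -0.44 without F266A IP 1 (adjusted p = 0.0995).

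For these 3 genes the inputs stood in the same order as the means of the IPs. The inputs are 1 library each, so their p-values assume that an input varies like the IPs, and the differences have no replicate check of their own. Wdr5 was 0.62 higher in the WT than in the F266A input (adjusted p = 0.208), Ash2l 0.67 higher in the F266A than in the empty vector input (adjusted p = 0.239), and Wdr82 was at -0.58 in F266A against the empty vector (adjusted p = 0.20). None of the 9 was called in the inputs, where 0% of all genes were called for WT against F266A and for WT against the empty vector and 1.42% for F266A against the empty vector. At an unadjusted p under 0.05 there were 3, 0 and 3 of the 9 in these comparisons, against 12.8%, 1.22% and 14.0% of all genes. The medians over all genes were 0.11 and -0.12 in the comparisons with F266A.

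By the mean of the IPs, the lines stood in the same order in both fractions for Wdr5, Ash2l, Wdr82 and Setd1b, though not for all of the 9. Single IPs of WT and the empty vector overlapped for Ash2l and Wdr82, and those of all 3 lines for Setd1b. How many of all genes keep their order in this way was not counted. After this order was seen, a model with line and fraction as terms was fitted to all 3 libraries of each line. It restates the order that prompted it, so its values are a description and no further support, and the comparisons of IPs and of inputs above called 0 of the 9. It takes libraries of the same label as replicates, F266A IP 1 included. The difference of Wdr5 between WT and F266A was 0.54 ± 0.087 (SE, 95% interval 0.34 to 0.73), and that of Ash2l was -0.51 ± 0.11. For F266A against the empty vector, Ash2l was at 0.58 (0.33 to 0.84) and Wdr82 at -0.41 (-0.62 to -0.19). Setd1a (-0.0023, 95% interval -0.19 to 0.19), Men1 (-0.071, -0.29 to 0.15) and Dpy30 (-0.079, -0.39 to 0.23) had the smallest differences between WT and F266A in this model. For Dpy30 the model averages over opposite signs, 0.20 in the inputs and -0.22 in the IPs. Setd1a also had opposite signs, with smaller values (0.044 and -0.026).

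At an adjusted p under 0.05 this model passed 2 of the 9 for WT against F266A, Wdr5 and Ash2l, where 9.97% of all genes passed. It passed 2 for F266A against the empty vector, Ash2l and Wdr82, against 16.7%. For WT against the empty vector 0 of the 9 passed, against 0.174% of all genes, and 1, Wdr5, had an unadjusted p under 0.05, against 8.47%. Without F266A IP 1, 4 of the 9 passed between WT and F266A and 5 between F266A and the empty vector, where the shares of all genes rose to 18.4% and 25.9%, and the differences were 0.58 for Wdr5 between WT and F266A and 0.71 for Ash2l between F266A and the empty vector. Ash2l between WT and F266A no longer passed without WT IP 1 or without F266A IP 2, and Wdr82 no longer passed without either empty vector IP or without F266A IP 2.

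**Figure D3:**
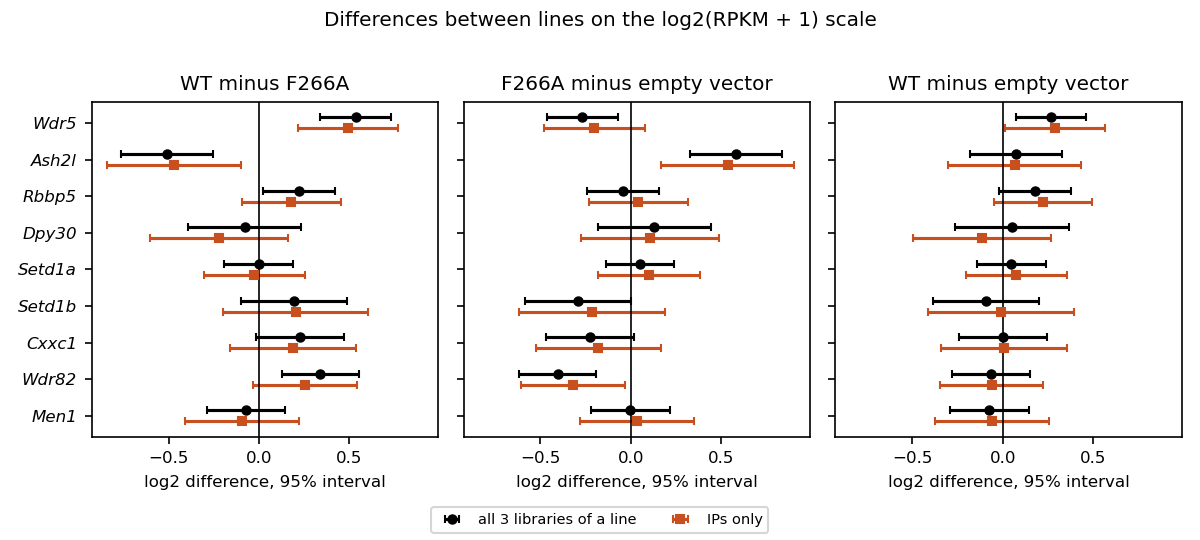
Differences between lines for the 9 mRNAs on the log2(RPKM + 1) scale with 95% intervals from limma, from the IPs alone (squares) and from all 3 libraries of each line (circles). Ash2l stands below 0 for WT minus F266A (-0.51 over all 3 libraries) and above 0 for F266A minus empty vector (0.58), and Wdr5 stands at 0.54 for WT minus F266A.

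Without a test, the WT IPs did not overlap the F266A IPs in Wdr5, Rbbp5 and Wdr82, which were higher in WT (a pattern of 23.3% of all genes), and in Ash2l, which was lower (18.0%). The WT IPs exceeded the empty vector IPs in Wdr5, Rbbp5 and Setd1a (21.2%). The F266A IPs were above those of the empty vector in Ash2l and Dpy30 (25.9%) and below them in Wdr5 and Wdr82 (28.6%). Ash2l was above both other lines in the F266A input and in the F266A IPs (8.12% of all genes), and all 3 F266A libraries were above the other 6 (2.66%). Wdr5 and Wdr82 were below both other lines in both fractions of F266A (16.0%).

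Ratios within a library do not depend on how the library was scaled. The ratio of Ash2l to Wdr5 in the input and both IPs was 1.31, 1.48 and 1.16 for the empty vector line, and 1.18, 1.02 and 1.19 for WT. For F266A the same libraries gave 2.98, 1.87 and 2.74. The 3 F266A libraries thus stood above the other 6, with F266A IP 1 nearest to them. Ash2l was above and Wdr5 below both other lines in both fractions of F266A, so this ratio joins differences already described. How many pairs of all genes separate F266A in this way was not counted. The ratio of Cxxc1 to Wdr82, the SET1-specific subunits, was 0.884 to 1.09 in the inputs and 1.16 to 1.45 in the IPs, without overlap. The other ratios computed did overlap between the fractions, such as Dpy30 to Wdr5 (1.41 to 2.22 in the inputs, 1.3 to 2.78 in the IPs). How many pairs of all genes separate the fractions was not counted.

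**Figure D4:**
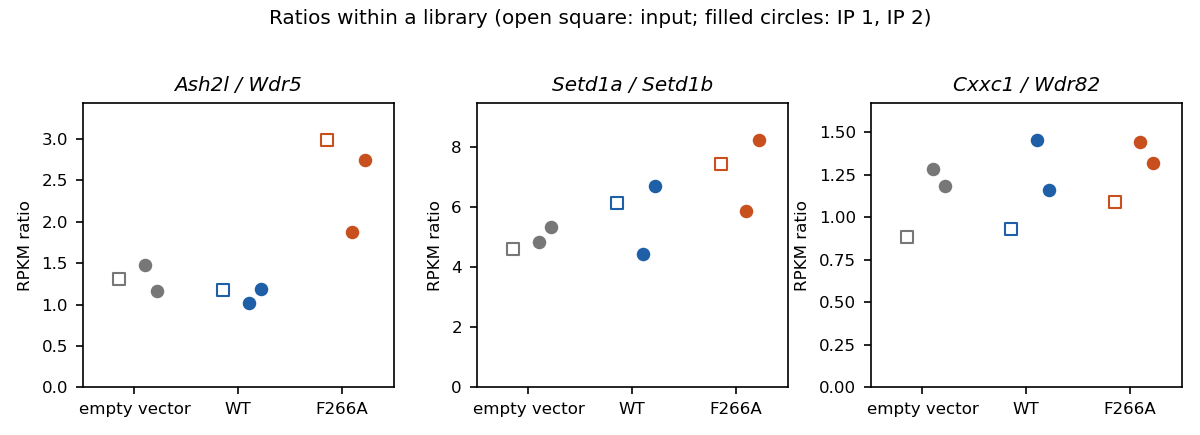
Ratios of RPKM within each library for 3 pairs of mRNAs, with open squares for inputs and filled circles for IPs, and axes that start at 0. Ash2l over Wdr5 was 1.87 to 2.98 in F266A and 1.02 to 1.48 elsewhere, and Cxxc1 over Wdr82 was higher in the IPs than in the inputs. How many other pairs of genes separate in these ways was not counted.

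Likeness of pattern to Wdr5 was measured as the root mean square difference of log2(RPKM + 1) over the 9 libraries after each gene's mean was removed. Among 3154 genes with a mean RPKM of at least 5, the median distance was 0.26. Among the nearest were 2610305D13Rik (0.099) and Map4k4 (0.10). Of the other subunits, Rbbp5 was nearest at 0.15, with 85 genes nearer, followed by Wdr82 at 0.17 with 189 nearer. Ash2l was the farthest at 0.49, with 3049 of the 3154 genes nearer. Cxxc1, Setd1b, Setd1a, Men1 and Dpy30 lay between, from 0.21 to 0.31. Setd1b and Men1 are below that mean RPKM, and on this scale the distances of low genes are understated.

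A list of 34 other genes of these pathways was read in the same way, all found in the table, 4 of them under an older name (Kmt2a as Mll1, Kmt2b as Wbp7, Kmt2c as Mll3 and Kmt2d as Mll2). Of these 32 were tested, and Hcfc2 and Wdr5b were too low. The other catalytic subunits had similar mean levels, with an RPKM of 7.74 for Kmt2a, 6.14 for Kmt2b, 6.66 for Kmt2c and 7.12 for Kmt2d. Hcfc1, a cofactor of several complexes, was the highest of the list at 21.5. In the mean comparison of IPs with inputs 21 of 32 were called higher, against 56.4% of all genes, and 0 lower, with a median difference of 0.25 on the log2 scale against 0.30 for all genes.

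The counts of the groups are also to be read against that 56.4%. Once each library was centred on its median gene, 92 of all 9787 genes were called higher, and which listed genes were among them is not given here. Of the 13 tested MLL and COMPASS subunits 7 were higher, led by Bod1 (0.63, adjusted p = 0.00355), which encodes a SETD1B-associated protein. Of these subunits, Kmt2b (0.24, adjusted p = 0.0397) passed, while Kmt2a (-0.043, adjusted p = 0.665), Kmt2c (0.092, adjusted p = 0.355) and Kmt2d (0.039, adjusted p = 0.677) did not. Of 14 tested genes of other complexes with WDR5 9 were higher, led by E2f6 (0.57, adjusted p = 0.00324), a repressor of the E2F family. All 5 H3K4 demethylases listed, enzymes that remove the mark, were called higher, with a median of 0.24 against 0.30 for all genes. Kdm5b (0.50, adjusted p = 0.00862) and Kdm1b (0.44, adjusted p = 0.00653) stood above that median, and Kdm5a (0.24), Kdm1a (0.24) and Kdm5c (0.21) below it. In the F266A line alone 9 of 32 were called higher against 19.3% of all genes, a share that was 0% without F266A IP 1 or either empty vector IP. In the other single lines, in the enrichment comparisons and in the comparisons of IPs or inputs between lines, limma called 0 of the 32, with at most 11 at an unadjusted p under 0.05, in WT, where 29.0% of all genes were.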

How the data were processed

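Single 50-base reads were aligned to mm9 by the authors, who used TopHat 1.1.3, and the deposited values are linear RPKM per gene symbol from a script of theirs. RPKM are already scaled by length and mapped reads, so a different share of reads on genes remains in them, and read counts were not used here. The 9 libraries were grouped by their labels. log2(RPKM + 1) was computed from the deposited values, and this scale understates changes of low genes. limma 3.58.1 in R 4.3.3 (lmFit, contrasts.fit, eBayes with trend) fitted 1 coefficient per line and fraction to 9787 genes, with two-sided p-values adjusted over all of them by Benjamini-Hochberg and a threshold of 0.05. The spread came from the 3 IP pairs (residual df 3, prior df 5.11). The procedure was tested on simulated data with known changes in the WT IPs only. Those changes were larger than the differences seen for the 9 mRNAs, so the test does not cover differences of this size. Positions and sequences are from GENCODE M1 on mm9. Figures, joins and ratios used Python 3.11.15, numpy 2.4.6 and pandas 2.3.3. Alternatives were pseudocounts of 0.1 and 0.01, no filter, median centring, a replicate block, a common input and leaving out each IP. The genes, lists and tests were chosen with earlier results of these data known. The rule for named genes took all 9 and the 3 genes nearest to Wdr5, of which 1 is not reported here. Depth estimates and counting errors cover counting only, since PCR copies are not independent molecules.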

Additional observations from a re-analysis of the deposited data

How the results depend on the processing

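In the mean comparison of IPs with inputs, centring each library on its median gene left 0 of the 9 mRNAs called and turned the direction of Rbbp5 (-0.011), Setd1b (-0.040), Ash2l (-0.092) and Wdr82 (-0.080). Over all alternatives 0 to 8 of the 9 were called there (6 as reported), with 5 to 8 when an IP was left out, and 153 to 6297 of all genes (5567 as reported). With no filter, Dpy30 (adjusted p = 0.0560) and Men1 (adjusted p = 0.0801) lost their calls, and with a pseudocount of 0.1 Wdr82 gained one (adjusted p = 0.0493). In the F266A line 1 of the 9 was called, against 3 with a pseudocount of 0.1, 0 with no filter, 0 with centring and 0 to 4 when an IP was left out, while the share of all genes went from 19.3% to 27.1%, 0.0636%, 0% and 0% to 28.5%. For the F266A IPs against those of the empty vector, leaving out an IP gave 0 to 1 of the 9 and 0% to 4.90% of all genes. With line and fraction as terms it gave 1 to 4 of the 9 for WT against F266A and 1 to 5 for F266A against the empty vector (2 each as reported), while the counts of all genes ran from 575 to 1800 and from 804 to 2531. Centring changed no call of the 9 in that model.

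The rule of the study was met by 2 of the 9 with a common input and by 0 to 1 when an IP was left out, and by 673 (median centring) to 3354 of all rows. The difference in enrichment of Wdr5 between WT and the empty vector was -0.0059 without empty vector IP 1 and 0.15 without empty vector IP 2, the range over the IPs left out. A common input in the enrichment comparisons between lines gives the comparison of the IPs alone and was not run apart. No alternative called any of the 9 in those comparisons or between the inputs, while the counts of all genes ran from 0 to 88 and from 0 to 304. The causes of these changes were not tested.

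The shared replicate numbers were not taken as pairs, because the correlation of the difference between IP 1 and IP 2 across genes was 0.112 for the empty vector with WT, 0.258 for WT with F266A and 0.0116 for the empty vector with F266A. With the replicate block, 2 of the 9 were called in the F266A line, against 27.8% of all genes, Setd1b passed in the mean comparison of IPs with inputs (0.27, adjusted p = 0.0395), and 151 genes in place of 61 were called in the empty vector line and 104 in place of 17 in WT. Each line has 1 input, and 2 IPs a line limit the precision. At the shallowest depth, Men1 in empty vector IP 2 rests on an estimated 143 reads.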
